A study of Mus musculus with 15 samples.

Results

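Tarsal joints sampled within 3 days of the onset of arthritis (day 0 to 3) were compared with joints of control mice over all genes measured. The comparison rests on 5 of the 15 arrays of the study, 2 joints of day 0 to 3 (animals 16 and 18) and 3 control joints (control 1, 2 and 3). Each array held RNA of 1 joint of 1 mouse, so the replicates were separate animals. A further joint of day 0 to 3, animal 57, was left out because its label marks the array as failing quality control, and its values are given where they touch a result. The mice with arthritis were male DBA/1JBom mice with collagen-induced arthritis (CIA), injected into the skin on day 1 with 100 µl of chicken collagen type II at 2 mg/ml, given in complete Freund's adjuvant at 0.5 mg/ml, and boosted on day 21 with the collagen in incomplete adjuvant. Both joints of day 0 to 3 had a clinical score of 3. The controls were of the same strain. The labels call them not induced and the array methods non-immunised, whereas the animal methods describe controls given both adjuvants without collagen, and whether these 3 mice had adjuvant is not settled. Skin, fur and visible muscle were cut away before the joints were frozen, and bone and the remaining soft tissue were kept. The other 9 arrays held 3 joints each of declining arthritis, of week 3 to 4 and of week 1 to 2, and are used for the second comparison below.

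In CIA, antibodies and T cells against collagen II start an inflammation of the joint in which neutrophils and macrophages enter the synovium, synovial fibroblasts release enzymes that break down matrix, and osteoclasts erode bone. Cells of innate immunity sense immune complexes through Fc receptors, complement fragments through their own receptors, and products of microbes or damaged cells through Toll-like and C-type lectin receptors. Signals from these receptors lead to the release of cytokines and of chemokines, which attract more leukocytes. In RNA of a whole joint, fewer cells of a type and less RNA per cell cannot be told apart.

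Values are log2 expression after robust multi-array average (RMA) normalisation, and 19938 genes were measured by a probe set that names a single gene. The 2 joints of day 0 to 3 were closer to each other than any 2 controls were. The root mean square difference over genes was 0.251 between animals 16 and 18, and 0.496 to 0.612 between controls. The SD of an array over genes, a measure of its signal range, was 1.60 and 1.53 at day 0 to 3, against 1.46, 1.22 and 1.41 in control 1, 2 and 3. Both joints of day 0 to 3 thus had a wider range than every control. With 1 median and SD for every array, 787 genes were higher and 619 lower, against 890 and 669 without this rescaling. The array names of animals 16 and 18 carry a letter code that the controls lack, and since no source used here explains the code, it and arthritis cannot be told apart. On animal 57 the SD over genes was 1.08. The values were quantile normalised before deposit, and whether animal 57 was normalised together with the other arrays is not settled.

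Against control, 890 genes were higher and 669 lower at day 0 to 3 (limma, Benjamini-Hochberg adjusted p under 0.05), which is 4.46% and 3.36% of all genes. For each of these 1559 genes the 2 joints lay on one side of all 3 controls. Of the higher genes, 641 differed by at least 2-fold and 109 by at least 4-fold, and of the lower genes 265 and 52. The median log2 difference was 1.23 over the higher genes, -0.92 over the lower genes and -0.12 over all genes. Over all genes, 18.4% had both joints above all controls and 27.8% had both below. Genes were grouped into 52 lists by function or cell type, of which 825 genes were measured and 57 were not analysed here. Among the measured genes 165 were higher and 74 lower. A small count in a list can lie near the 4.46% and 3.36% of all genes, and is then not a result about that list. The lists with the highest medians were those of macrophages, Fc receptors, matrix proteases and pattern recognition receptors, and the lowest were those of skeletal muscle, epidermis and adipocytes, as the plot of all lists shows. Members of a list named beyond its 4 largest differences were chosen after their values were seen.

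**Figure D1:**
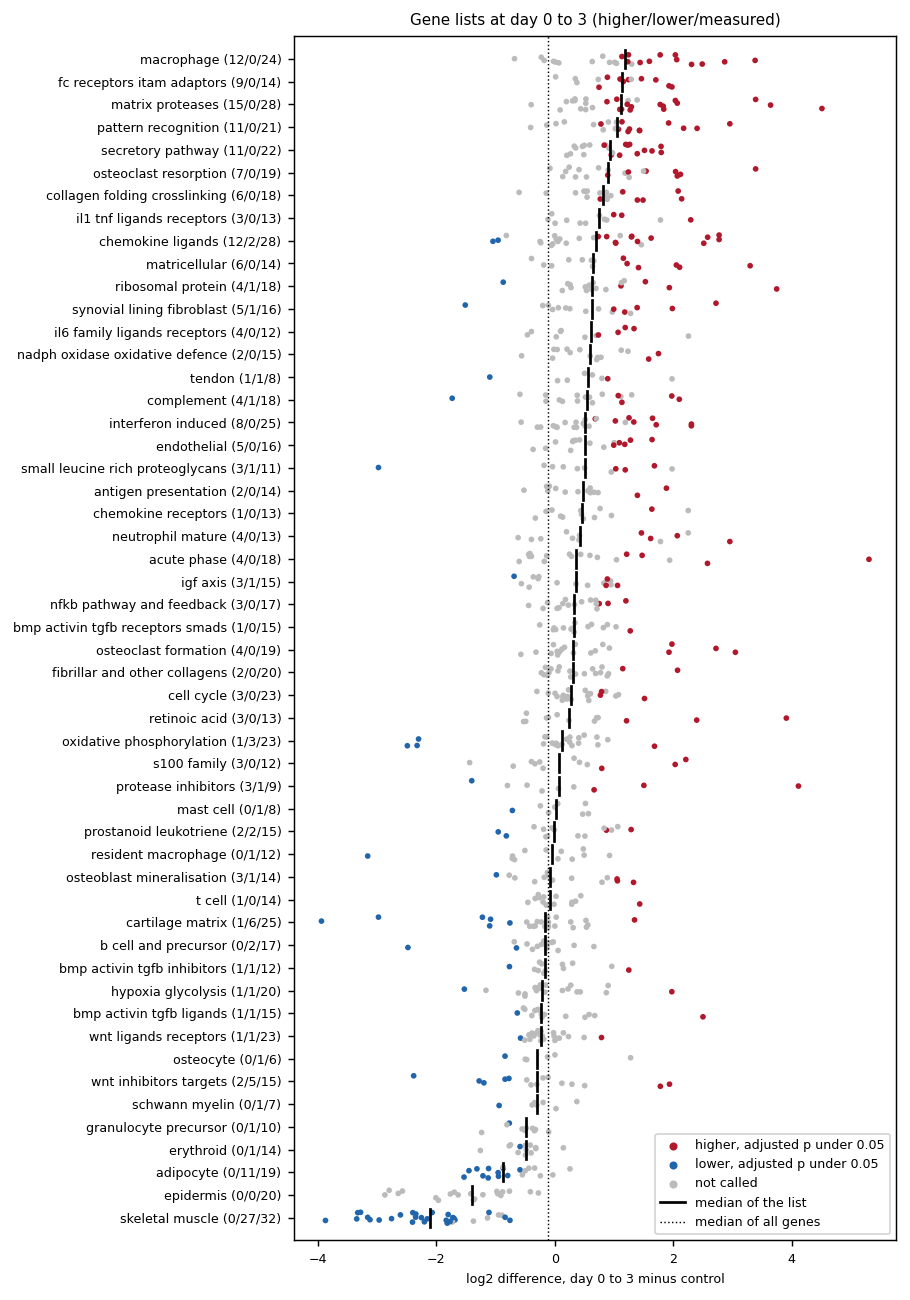
Log2 difference between day 0 to 3 and control (x axis) of every measured member of 52 gene lists (y axis), with the numbers higher, lower and measured beside each list. Points are genes, red higher, blue lower and grey not called, the black bar is the median of the list, and the dotted line is the median of all genes at -0.12; the macrophage list has the highest median at 1.18 and the skeletal muscle list the lowest at -2.11.

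Of 21 measured genes of receptors that sense microbial products and of their signalling, 11 were higher at day 0 to 3 and 0 lower, at a median log2 difference of 1.04 against -0.12 over all genes. The C-type lectin receptor gene Clec4d had log2 values of 8.14 and 8.43 at day 0 to 3, against 5.84, 4.87 and 5.27 in controls, a 7.76-fold difference (log2 2.96, standard error 0.44, adjusted p = 0.00229). Clec4e, which encodes the partner receptor Mincle, was at 7.91 and 7.55 at day 0 to 3 and at 5.15, 5.43 and 5.40 in controls (5.29-fold, adjusted p = 0.0205). For both genes the lower of the 2 arthritic joints stood more than 2 log2 units above the highest control. Clec4n, the gene of dectin-2, was 3.79-fold higher and Clec7a, the gene of dectin-1, had a log2 difference of 1.08, so that all 4 of these receptors for glycans and glycolipids passed. Tlr13, whose product recognises bacterial ribosomal RNA, was at 8.30 and 7.88 at day 0 to 3, against 6.28, 5.47 and 5.99 in controls (4.52-fold, adjusted p = 0.00315). The other Toll-like receptor genes that passed were Tlr1, Tlr2 and Tlr6, which sense bacterial lipopeptides, and Tlr7, which senses single-stranded RNA, at log2 differences of 0.78 to 1.43. Myd88, the adaptor of most Toll-like receptors, and the cytosolic DNA sensor gene Aim2 were also higher, at log2 1.43 and 1.26. Cd14, the co-receptor for lipopolysaccharide, was at 8.75 and 8.46 at day 0 to 3 and at 7.56, 7.19 and 7.94 in controls, and did not pass (adjusted p = 0.0817).

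Of 14 measured genes of Fc receptors and the adaptors that carry their signals, 9 were higher and 0 lower (median log2 difference 1.13). Both arthritic joints lay above all controls for 11 of the 14, against 18.4% of all genes. The adaptor genes Tyrobp (DAP12) and Fcer1g, the common gamma chain that couples activating Fc receptors to the kinase Syk, were higher 3.94-fold and 3.81-fold. Tyrobp was at 12.27 and 12.11 at day 0 to 3, against 10.45, 9.51 and 10.68 in controls. Fcgr1, the high-affinity IgG receptor gene, was at 7.46 and 7.70, against 6.32, 6.30 and 6.37 in controls, with the smallest spread between controls of the group (log2 1.25, standard error 0.18, adjusted p = 0.00176). Among the receptors, both the activating Fcgr3 and Fcgr4 (log2 0.75 and 1.16) and the inhibitory Fcgr2b (3.27-fold) passed, and so did the kinase gene Syk (log2 0.89) and the gene of the phosphatase SHIP1, Inpp5d (log2 1.10), which counters this pathway. Trem1, an activating receptor of neutrophils and monocytes, was 2.76-fold higher. In animal 57 Fcgr1 was at 7.63, within the range of the other 2 arthritic joints, and Tyrobp was at 8.69, below every control.

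The complement genes moved in both directions. Of 18 measured 4 were higher and 1 lower (median 0.55). The higher ones were the receptor genes for the fragments C3a and C5a (C3ar1, 4.30-fold, and C5ar1, log2 1.07), the factor B gene Cfb of the alternative pathway (3.94-fold) and Itgam, a chain of complement receptor CR3 (log2 1.14). C3ar1 was at 10.16 and 10.34 at day 0 to 3 and at 8.72, 7.43 and 8.28 in controls. C7, a component of the membrane attack complex, was at 6.49 and 6.04 at day 0 to 3, against 8.08, 7.96 and 7.94 in controls, and was 3.31-fold lower (log2 -1.73, standard error 0.28, adjusted p = 0.00367). The 3 controls lay close together for C7, and both arthritic joints were well below them. Without control 2 or control 3, 1 gene of the list was higher and 1 lower.

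**Figure D2:**
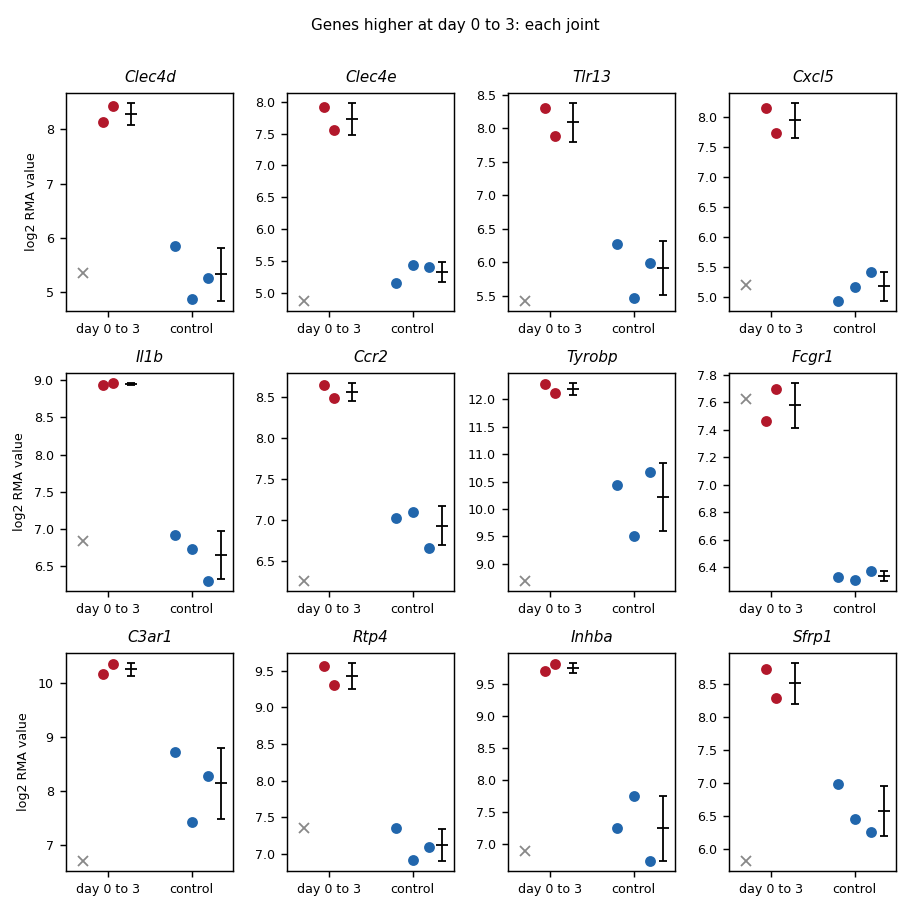
Log2 expression (y axis) of 12 genes that were higher at day 0 to 3, in each joint of day 0 to 3 (red, left) and control (blue, right); the black bars are the mean ± SD (n = 2 and 3) and the grey cross is animal 57, which was left out of the comparison. Both joints of day 0 to 3 lie above all 3 controls for every gene, while the cross lies clearly above all controls only for Fcgr1.

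Of 13 measured genes of IL-1 and TNF ligands and receptors 3 were higher and 0 lower (median 0.76), and of 12 of the IL-6 family 4 were higher and 0 lower (median 0.61). Il1b was at 8.94 and 8.96 at day 0 to 3, against 6.92, 6.73 and 6.31 in controls (4.91-fold, adjusted p = 0.012), and Il33 and Il1rap, the accessory chain that IL-1 and IL-33 receptors share, were 2.19-fold and 2.00-fold higher. The shared receptor chain of the IL-6 family Il6st, the oncostatin M receptor gene Osmr, the ligand gene Lif and Stat3, the transcription factor downstream of them, were the 4 that passed in the second list. Il6 itself differed between the 2 arthritic joints, with 7.87 in animal 16 and 6.74 in animal 18, against 6.07, 5.33 and 3.74 in controls. Its log2 difference of 2.26 had a standard error of 0.76 and did not pass (adjusted p = 0.083). In the IL-6 family 1 gene was called without control 2 and likewise without control 3. In the NF-kB pathway 3 of 17 genes were higher, namely the survival gene Birc3, the subunit gene Rel and Nfkbiz, a nuclear co-factor induced by IL-1 and Toll-like receptors, at log2 0.75 to 1.20, but 0 were called without control 2 and 1 without control 3. Among 18 acute phase genes 4 were higher (median 0.36), including the serum amyloid genes Saa3 and Saa1, haptoglobin (Hp, 2.78-fold) and the pentraxin gene Ptx3 (log2 1.22).

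Of 28 chemokine ligand genes 12 were higher and 2 lower (median 0.70). The higher ones included Cxcl5, Cxcl2 and Cxcl3, ligands of the neutrophil receptor CXCR2, and Ccl2 and Ccl12, ligands of the monocyte receptor CCR2. Cxcl5 was at 8.15 and 7.74 at day 0 to 3, against 4.93, 5.17 and 5.42 in controls, and the 2 groups were more than 2 log2 units apart (6.85-fold, adjusted p = 0.0164). Ccl2 was at 8.71 in animal 16 and 7.68 in animal 18, against 7.19, 6.85 and 6.63 in controls (log2 1.30, adjusted p = 0.0449). The other higher ligands were Ccl3, Ccl8, Ccl9, Ccl20, Cxcl16 and the constitutive Cxcl12 and Cxcl14, at log2 0.74 to 2.58. The 2 lower ones, Ccl11 and Ccl24, encode eotaxins, which attract eosinophils. Ccl24 was at 6.48 and 6.44 at day 0 to 3, against 7.40, 7.49 and 7.63 in controls (log2 -1.04, standard error 0.18, adjusted p = 0.00542), and Ccl11 at 9.20 and 8.80, against 10.19, 9.69 and 9.99 (log2 -0.95, adjusted p = 0.0357). Among 13 receptor genes only Ccr2 was called higher, at 8.65 and 8.49 against 7.02, 7.10 and 6.66 in controls (3.12-fold, adjusted p = 0.00211). The neutrophil receptor gene Cxcr2 was at 10.21 and 10.13 against 8.63, 6.75 and 8.36 and did not pass (adjusted p = 0.0549). Without control 2, 7 ligands were higher and 2 lower, and without control 3, 5 were higher and 1 lower.

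Genes induced by interferon were higher in 8 of 25 and lower in 0 (median 0.52). Ifit3 was at 10.03 and 10.02 at day 0 to 3, against 8.26, 7.50 and 7.38 in controls (4.95-fold, adjusted p = 0.00288). Its neighbour Ifit1, whose product binds viral RNA that lacks a host cap, was at 7.50 and 7.62, against 5.58, 6.53 and 5.43 (3.28-fold, adjusted p = 0.0203). The other 6 were Rtp4, Trim30a, Oasl2, Ifit2 and the sensors of viral RNA Ddx58 (RIG-I) and Ifih1 (MDA5), at log2 0.69 to 2.31. Antigen presentation genes of MHC class II were higher in 2 of 14, H2-Ab1 (3.70-fold) and the invariant chain gene Cd74 (2.63-fold).

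Interferon acts through a DNA element in which GAAA is followed, after 2 bases of any kind, by GAAA (read on either strand). This element was searched in the 250 bases before the start of transcription of RefSeq genes on the GRCm38.p6 assembly, where 15614 of the 19938 genes had a promoter. It was found in 3.40% of these, in 9 of the 20 interferon-induced genes with a promoter and in 3 of the 7 called higher, Ifit1, Ifit3 and Trim30a. In all 6 motifs were searched, chosen with the values known, and a match is a description of the sequence. The sites of NF-kB (GGGA, 1 base of any kind, then TTTCC) and AP-1 (TGA, 1 base of any kind, then TCA) were in 2 and 3 of the 14 NF-kB pathway genes with a promoter, against 0.461% and 7.12% of the genes measured. Each site was in 0 of the 2 called genes of that list with a promoter. Among all genes called higher the 2 sites were in 0.428% and 7.13%. The 160 bases before the start of Ifit1 (chr19:34640729-34640888, + strand) and Ifit3 (chr19:34583369-34583528, + strand) are shown because each holds the interferon element 2 times. The element is in capitals and read on the reverse strand. It begins 104 and 85 bases before the start in Ifit1 and 156 and 122 bases in Ifit3.
Ifit1: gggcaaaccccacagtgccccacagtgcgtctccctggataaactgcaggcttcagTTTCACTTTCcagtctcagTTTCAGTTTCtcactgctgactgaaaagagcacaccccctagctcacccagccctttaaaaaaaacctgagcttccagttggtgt
Ifit3: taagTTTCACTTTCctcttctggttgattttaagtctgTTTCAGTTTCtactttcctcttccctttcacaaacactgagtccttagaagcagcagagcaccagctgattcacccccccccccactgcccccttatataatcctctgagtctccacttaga

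Among the leukocyte lists, that of macrophages moved most. Of 24 measured genes 12 were higher and 0 lower (median 1.18), with the mean of the list at 8.64 and 8.38 at day 0 to 3, against 7.67, 6.96 and 7.35 in controls. The genes of the Ms4a family, membrane proteins of myeloid cells, stood out: Ms4a6b, Ms4a6c, Ms4a6d and Ms4a7 had log2 differences of 2.06 to 3.38. The defining macrophage genes Adgre1 and Cd68 passed at log2 1.44 and 1.23, while Csf1r, the receptor for the growth factor of macrophages, was at 9.22 and 8.78 against 8.46, 7.85 and 8.24 and did not (adjusted p = 0.0966). Genes of tissue-resident macrophages did not rise with them, since 0 of 12 were higher and 1 was lower (median -0.04). That one was Retnla, a gene of macrophages activated by IL-4 that adipose tissue also expresses, at 5.87 and 6.22 at day 0 to 3, against 8.60, 9.17 and 9.83 in controls (8.91-fold lower, adjusted p = 0.000735).

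Neutrophil genes were higher in 4 of 13 (median 0.42), among them the G-CSF receptor gene Csf3r at 8.23 and 7.83, against 6.61, 6.09 and 6.54 in controls. The most abundant neutrophil genes S100a8 and S100a9 did not pass. S100a8 was at 12.10 and 12.04 at day 0 to 3, against 12.61, 12.21 and 12.55 in controls, so that both arthritic joints lay below the controls. S100a9 had a positive difference (log2 0.42), at 12.80 and 12.85, against 12.58, 11.78 and 12.85 in controls, and the groups overlapped. Few genes of immature blood cells passed. Of 10 granulocyte precursor genes 0 were higher and 1, Cebpe, was lower (median -0.49), with 4 below all controls. Of 14 erythroid genes 12 had both arthritic joints below all controls, with only Sptb passing (median -0.49). Over all genes 27.8% had both joints below all controls. Vpreb1, which encodes a part of the pre-B cell receptor, was at 8.67 and 8.95 at day 0 to 3, against 10.94, 12.05 and 10.87 in controls (5.56-fold lower, adjusted p = 0.00941). Vpreb3 was also lower (log2 -0.64), and the other 15 of 17 B cell genes did not pass. Of 14 T cell genes only Cd3g was called, 2.71-fold higher, where 4.46% of all genes were called higher. Cd3e was at 6.56 and 6.54, within the controls at 6.49, 7.06 and 6.54.

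For 21 of 28 matrix proteases both arthritic joints lay above all controls, against 18.4% of all genes. The list had the largest number of higher genes of any, 15 of 28 with 0 lower (median 1.11). Beside stromelysin (Mmp3), collagenase 3 (Mmp13) and the gelatinase gene Mmp9 they included the gelatinase gene Mmp2 and the membrane protease that activates it, Mmp14. Mmp2 was at 10.80 and 10.99 at day 0 to 3, against 9.84, 8.01 and 9.34 in controls (log2 1.83, adjusted p = 0.0164). The lysosomal cathepsins formed the largest subgroup, with Ctsb, Ctsh, Ctsk, Ctsl, Ctss and Ctsz all higher, at log2 1.05 to 3.39, together with the asparaginyl protease gene Lgmn. Of the aggrecanase family, Adamts5 was at 9.04 and 8.77 against 7.58, 6.87 and 8.08 and did not pass (adjusted p = 0.0666). The protease inhibitors split. Timp1, Slpi and cystatin C (Cst3) were higher, whereas Timp4 was at 5.75 and 6.11 at day 0 to 3, against 7.72, 7.16 and 7.10 in controls, and was 2.64-fold lower (adjusted p = 0.00711).

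Of 16 genes of synovial lining and fibroblasts 5 were higher and 1 lower (median 0.63), and 1 was higher without control 2 and likewise without control 3. The hyaluronan synthase gene Has2 was at 8.85 and 7.90 at day 0 to 3, against 6.78, 6.22 and 6.17 in controls (3.96-fold, adjusted p = 0.00402). Tnfaip6, whose product links hyaluronan to other proteins, was at 9.32 and 9.18 at day 0 to 3, against 8.19, 5.60 and 5.79, with control 1 far above the other controls (6.60-fold, adjusted p = 0.0221). The same control was the highest of the 3 for many matrix genes: it was at 10.42 for periostin (Postn), where control 2 and 3 were at 7.54 and 7.58. Vcan, a matricellular gene that encodes the hyaluronan-binding proteoglycan versican, was 4.15-fold higher. The lower gene of the synovial list was Clic5, a cytoskeletal linker (2.84-fold). The fibroblast genes Cdh11, which holds the synovial lining together, and Fap were among the higher ones (log2 1.39 and 1.18). Of 20 collagen genes 2 were higher, Col12a1 and Col14a1, which decorate the surface of collagen fibrils (log2 2.07 and 1.15), and the fibril genes Col1a1 and Col1a2 did not pass (log2 0.80 and 0.89). Enzymes that fold and crosslink collagen were higher in 6 of 18, with the lysyl hydroxylase gene Plod2, the lysyl oxidase gene Lox, and the prolyl hydroxylase subunit gene P4hb at log2 1.40 to 2.14. Col12a1, Lox, Postn and many of the matrix protease and collagen folding genes are among those the study picked out on these arrays, so the counts of these lists are not independent evidence of their direction.

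Without control 1 more matrix genes passed, 11 of 18 for collagen folding, 8 of 20 for collagens and 9 of 14 for matricellular proteins. Without control 2, and likewise without control 3, the counts were 4, 1 and 5. In the macrophage, protease and secretory lists control 2 had the lowest mean of the controls, and it also had the narrowest signal range, as the plot of list means shows. With 1 median and SD for every array, which gives all arrays the same range, the macrophage list had 12 higher genes and a median of 0.98 (12 and 1.18 without this), the proteases 14 and 0.95 (15 and 1.11), and the secretory list 7 and 0.63 (11 and 0.94).

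**Figure D3:**
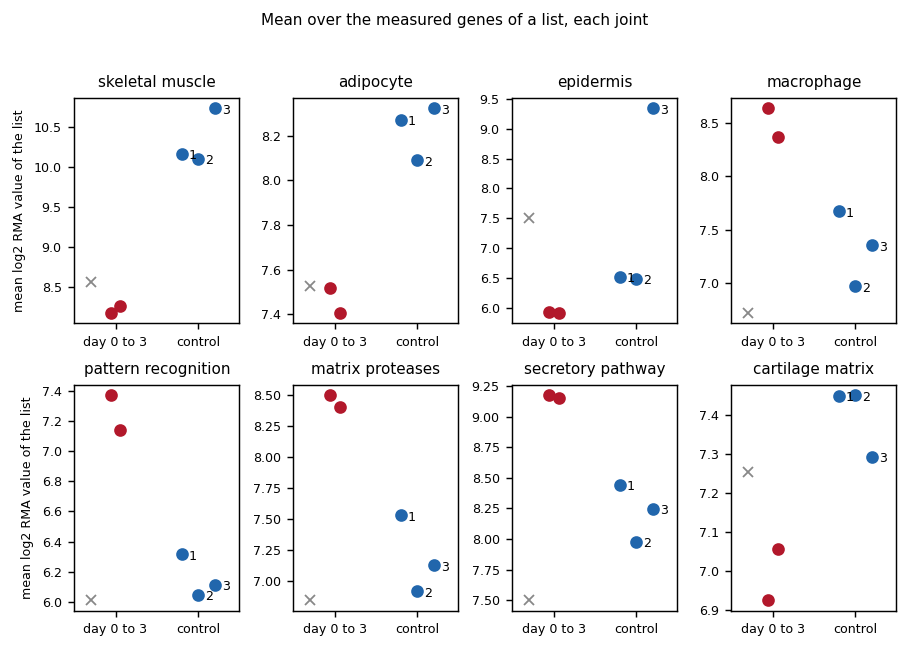
Mean log2 expression over the measured genes of 8 lists (y axis) in each joint of day 0 to 3 (red, left) and in control 1, 2 and 3 (blue, right, numbered). The grey cross is animal 57. The 2 joints of day 0 to 3 lie below all controls for skeletal muscle, adipocyte, epidermis and cartilage matrix genes and above them for the other 4 lists, and control 3 stands apart for epidermis genes at 9.34.

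Of 19 genes that osteoclasts use to dissolve bone 7 were higher, 0 were lower and 12 were not called (median 0.90). Without animal 16 the number higher was 0, and without animal 18 it was 4. Acp5, the gene of tartrate-resistant acid phosphatase, was at 10.20 and 9.78 at day 0 to 3, against 8.12, 6.95 and 8.53 in controls (4.36-fold, adjusted p = 0.0038). Subunits of the proton pump that acidifies the resorption pit made up most of the rest, with Atp6v1b2 (4.12-fold), Atp6v1a, Atp6v0d1 and Tcirg1 all higher. Of 19 genes of osteoclast formation 4 were higher and 0 lower (median 0.32), and 1 without animal 16 or without animal 18. The one with the largest difference, the pump subunit gene Atp6v0d2, which is needed for the fusion of osteoclast precursors, was at 10.40 and 9.77 at day 0 to 3, against 7.63, 6.69 and 6.79 (8.28-fold, adjusted p = 0.00186). The calcitonin receptor gene Calcr, which marks mature osteoclasts, was at 5.77 and 5.53, against 5.81, 6.21 and 5.87 in controls, and did not pass (adjusted p = 0.452). Cathepsins and proton pump subunits are also expressed by macrophages, whose list was higher in the same joints, and their part in these values was not tested. Acp5, Ctsk and Atp6v0d2 are among the genes the study picked out on these arrays, so these counts are not independent evidence of direction.

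Genes of bone formation moved in both directions. Of 14 osteoblast genes 3 were higher, Ibsp, Mgp and Sparc, which encode matrix proteins (log2 1.05 to 1.33), and 1 was lower (median -0.07). With 1 median and SD for every array 0 were higher and 1 was lower. The lower one was the transcription factor gene Dlx5, at 7.95 and 7.77 at day 0 to 3, against 9.01, 8.54 and 8.99 in controls (1.98-fold lower, adjusted p = 0.00844). The osteoblast transcription factor gene Sp7 was at 6.50 in both arthritic joints, within the controls at 6.65, 6.86 and 6.35. Alpl, the phosphatase needed for mineralisation, was at 7.78 and 7.96, below the controls at 8.77, 8.45 and 8.70, and just missed the threshold (adjusted p = 0.0552). Sost, the Wnt inhibitor made by osteocytes, was at 6.52 and 6.74, against 7.57, 7.55 and 7.28 (1.79-fold lower, adjusted p = 0.0307).

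Secreted inhibitors of Wnt signalling divided into 2 higher and 4 lower genes. Wnt inhibitors and targets were higher in 2 of 15 and lower in 5 (median -0.30). Sfrp1 was at 8.73 and 8.29 at day 0 to 3, against 6.99, 6.46 and 6.26 in controls (3.83-fold, adjusted p = 0.00677), and Sfrp2 was 3.44-fold higher. Wif1 went the other way, at 6.34 and 6.94, against 8.21, 7.78 and 7.52 (log2 -1.19, adjusted p = 0.00638). Frzb, an inhibitor found in articular cartilage, was at 5.60 and 5.65 at day 0 to 3, against 7.64 in control 1 and 6.51 and 6.55 in the other controls (2.42-fold lower, adjusted p = 0.0325), and Sfrp5 and Sost were lower as well. As for every called gene, the groups did not overlap for these 6 inhibitors. Ndrg2, the fifth lower gene of the list, is also a gene of muscle. The study picked out Ndrg2 and Sost on these arrays, so the counts of this list are not independent evidence of direction. Of 23 Wnt ligands and receptors 1 was higher, the receptor gene Fzd1, and 1 lower, Fzd8. These counts lie near the shares over all genes, 4.46% higher and 3.36% lower.

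Of 15 ligands of the TGF-beta superfamily, Inhba, which encodes the subunit of activin A, was the one that was higher and Bmp4 the one that was lower. Over all genes 4.46% were higher and 3.36% lower. Inhba was at 9.69 and 9.81 at day 0 to 3, against 7.25, 7.75 and 6.74 in controls (5.67-fold, adjusted p = 0.00941). Bmp4, a bone morphogenetic protein of osteoblasts and cartilage, was at 6.93 and 7.13, against 7.77, 7.40 and 7.80 (1.55-fold lower, adjusted p = 0.0459). The TGF-beta receptor gene Tgfbr1 and the activin-binding protein gene Fstl1 were higher, 2.42-fold and 2.38-fold, and Smad6, an intracellular inhibitor that BMP signals induce, was lower 1.70-fold. In the axis of insulin-like growth factor 3 of 15 genes were higher, the receptor gene Igf2r, Igfbp7 and Pappa, and 1 was lower, the PAPP-A inhibitor gene Stc2.

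Cartilage genes were lower in 6 of 25 and higher in 1 (median -0.16). Both arthritic joints lay below all controls for 13 of the 25, against 27.8% of all genes. Without animal 16 the number lower was 1, and without animal 18 it was 2. Chad, the gene of the cartilage matrix protein chondroadherin, was at 7.48 and 7.57 at day 0 to 3, against 10.26, 10.59 and 10.65 in controls, and had the smallest adjusted p of the genes named (log2 -2.97, standard error 0.23, adjusted p = 9.35e-05). Clec3a, a lectin of cartilage, was at 6.48 and 7.20, against 10.55, 11.27 and 10.50 (adjusted p = 0.00229). Ucma, made by resting and early chondrocytes, Snorc, a chondrocyte proteoglycan, Cilp, of the middle zone of articular cartilage, and the transcription factor gene Sox6 were lower at log2 -1.22 to -0.76. The higher gene was Csgalnact1, an enzyme that starts chondroitin sulphate chains (2.55-fold). The genes of the main cartilage components did not pass. Col2a1, the collagen used for immunisation, was at 6.97 and 7.11, against 7.59, 7.44 and 7.34 in controls (adjusted p = 0.198), and aggrecan (Acan) at 8.10 and 8.54, against 8.26, 6.97 and 8.11 (adjusted p = 0.271).

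**Figure D4:**
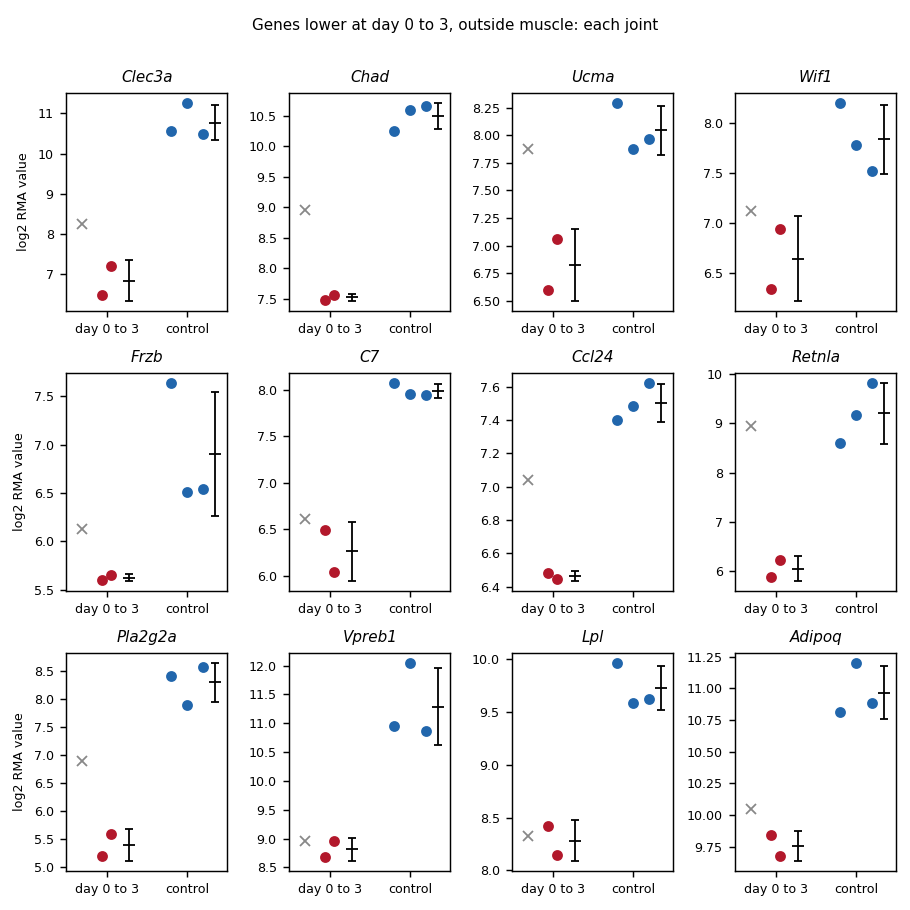
Log2 expression (y axis) of 12 genes outside muscle that were lower at day 0 to 3, in each joint of day 0 to 3 (red, left) and control (blue, right); the black bars are the mean ± SD (n = 2 and 3) and the grey cross is animal 57. Both joints of day 0 to 3 lie below all 3 controls for every gene.

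Retinoic acid genes included 3 higher of 13 measured and 0 lower (median 0.24), and the 3 belong to consecutive steps. Rdh10 oxidises retinol to retinal, and was at 8.75 and 8.95 at day 0 to 3, against 6.94, 6.37 and 6.05 in controls (5.27-fold, adjusted p = 0.00176). Aldh1a2 turns retinal into retinoic acid, and was at 7.98 and 7.28, against 6.75, 6.48 and 6.02 (2.32-fold, adjusted p = 0.0122). Crabp2 carries retinoic acid into the nucleus, and averaged 11.11 ± 0.16 (SD, n = 2), against 7.74, 7.09 and 6.79 (15.0-fold, adjusted p = 0.00317). As for every called gene, the groups did not overlap for these 3, and all 3 were also called without control 2. Without animal 16, 2 were called.

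Genes of the endoplasmic reticulum, where secreted proteins are folded, were higher in 11 of 22 and lower in 0 (median 0.94). Both arthritic joints lay above all controls for 19 of the 22, against 18.4% of all genes. The chaperone gene Hspa5 (BiP) was at 10.26 and 10.06 at day 0 to 3, against 9.29, 8.26 and 8.39 in controls (2.86-fold, adjusted p = 0.00855). Creld2, a folding factor induced by stress of the endoplasmic reticulum, was at 8.43 and 8.37, against 7.64, 7.09 and 7.59 (log2 0.95, adjusted p = 0.00727). The others were the chaperones Hsp90b1 and Dnajb9, the disulphide isomerases Pdia3, Pdia4 and Pdia6, and the translocation channel genes Sec61a1, Sec61b, Ssr1 and Ssr3, at log2 0.84 to 1.80. A second probe set of Pdia4 had a log2 difference of -0.38 and did not pass (adjusted p = 0.461), so the probe sets of that gene disagree. For Sec61b the probe set used was at 1.80, and its others at 1.16 and 0.89 did not pass (adjusted p = 0.0975 and 0.128). Ribosomal protein genes were higher in 4 of 18 and lower in 1 (median 0.64), and their calls depended on the probe set. The probe set used for Rplp0 had a log2 difference of 3.75 and its other one -0.08 (not called), while those used for Rps14 and Rps10 were at 1.13 and 0.52 (not called) and others of these genes at 2.40 and 2.13 (called). After a second quantile normalisation the medians were 0.55 for the secretory list, with 7 higher, and 0.24 for the ribosomal list, with 3 higher.

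The endoplasmic reticulum stress element, CCAAT followed after 9 bases by CCACG on either strand, was found in 0.128% of promoters of the genes measured, in 7 of 19 of the secretory list and in 4 of the 10 called higher, Hspa5, Hsp90b1, Pdia6 and Creld2. The 160 bases before the start of Hspa5 (chr2:34771930-34772089, + strand) and Creld2 (chr15:88819486-88819645, + strand) are shown because these genes had clear differences and the element, in capitals, lies on opposite strands in them, 65 and 126 bases before the start.
Hspa5: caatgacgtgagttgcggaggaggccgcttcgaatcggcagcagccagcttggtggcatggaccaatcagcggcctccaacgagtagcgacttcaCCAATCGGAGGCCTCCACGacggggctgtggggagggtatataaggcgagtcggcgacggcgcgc
Creld2: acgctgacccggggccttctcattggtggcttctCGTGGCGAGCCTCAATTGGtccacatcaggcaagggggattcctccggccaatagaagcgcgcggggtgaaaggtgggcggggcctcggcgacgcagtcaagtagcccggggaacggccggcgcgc

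Genes of the endothelium were higher in 5 of 16 (median 0.51), but in 2 without control 2, without control 3 or after a second quantile normalisation. Emcn, a sialomucin of capillaries and veins, was at 9.18 and 9.32 at day 0 to 3, against 7.74, 7.20 and 7.87 in controls (3.13-fold, adjusted p = 0.0177). Cdh5, the cadherin of endothelial junctions, the receptor genes Tek and Kdr, and Vcam1, which holds leukocytes on inflamed endothelium, were the others, at log2 1.00 to 1.28. Hif1a, which encodes the transcription factor of the response to low oxygen, was higher 3.94-fold, whereas 18 of the 20 genes of hypoxia and glycolysis were not called, and Aldoa, the aldolase of muscle, was 2.88-fold lower.

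The adipocyte list was the second with many lower genes, 11 of 19 with 0 higher (median -0.87). The mean of the list was 7.52 and 7.41 at day 0 to 3, against 8.27, 8.09 and 8.32 in controls. Both arthritic joints lay below all controls for 16 of the 19, against 27.8% of all genes. Adiponectin (Adipoq) was at 9.84 and 9.67, against 10.81, 11.20 and 10.88 (2.31-fold lower, adjusted p = 0.00538). The lipoprotein lipase gene Lpl was at 8.42 and 8.15, against 9.97, 9.59 and 9.63 (2.72-fold lower, adjusted p = 0.00293). Genes of lipid storage and release, Plin1, Cidec, Lipe, Pnpla2 and Fasn, were lower at log2 -1.12 to -0.79. Fabp4, an abundant fatty acid binding protein of adipocytes, averaged 8.98 ± 0.02 (SD, n = 2), against 9.37, 9.38 and 9.21, and did not pass (adjusted p = 0.197). In animal 57 the mean of the list was 7.53, near the other arthritic joints. With animal 57 in the fit 5 genes of the list were called, and without animal 16 or without animal 18 the number was 3.

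Skeletal muscle genes made up much of the largest decreases. All 32 measured genes had both joints of day 0 to 3 below all controls, where 27.8% of all genes did, and 27 were called lower (median -2.11). The study had picked out Myl2, Pygm, Casq1, Myh4 and Ckm as lower on these arrays. The counts of this list are therefore not independent evidence of its direction. The mean of the list was 8.17 and 8.26 at day 0 to 3, against 10.16, 10.10 and 10.73 in controls. The calcium pump gene Atp2a1 was at 8.38 and 8.12, against 11.21, 11.55 and 11.96 (10.0-fold lower, adjusted p = 0.000533). Genes of the fast myosin heavy chains (Myh1, Myh4), of calcium release (Ryr1, Casq1, Cacna1s) and of energy supply (Ckm, Pygm) were all lower, at log2 -3.28 to -1.68. The slow fibre genes Myl2 and Myh7 were lower too, at log2 -3.34 and -1.70. Of 23 genes of oxidative phosphorylation 3 were lower and 1 was higher. The 3 lower ones, Cox6a2, Cox7a1 and Cox8b, encode the forms of cytochrome oxidase subunits found in muscle, at log2 -2.49 to -2.30. Visible muscle was removed at dissection, and how much was left on each joint was not measured. In animal 57 the mean of the muscle list was 8.56, below every control, and with this array in the fit 25 genes of the list were called. The list called 16 genes lower without animal 16, 21 without animal 18, and 24 to 28 without a control.

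The sequence CAGCTG, a form of the E-box to which myogenic factors bind, was found in 14.5% of the promoters of genes measured, in 16 of the 28 muscle genes with a promoter and in 14 of the 23 called lower. The other muscle element searched, that of MEF2 (CTA, 4 bases of any kind, then TAG), was in 1 of the 28 and in 3.66% of the genes measured. The promoters of Atp2a1 (chr7:126463074-126463233, - strand) and Mybpc1 (chr10:88605153-88605312, - strand), which also differed from the later phases below, hold it 55 and 87 bases before the start, in capitals.
Atp2a1: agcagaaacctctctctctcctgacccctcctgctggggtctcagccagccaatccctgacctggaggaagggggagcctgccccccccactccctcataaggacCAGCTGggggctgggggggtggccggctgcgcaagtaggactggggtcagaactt
Mybpc1: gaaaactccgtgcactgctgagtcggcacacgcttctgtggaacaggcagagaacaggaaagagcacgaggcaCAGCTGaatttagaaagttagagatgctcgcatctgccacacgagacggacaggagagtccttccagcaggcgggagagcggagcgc

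Epidermis genes were also lower in value, but none passed. All 20 had a negative difference (median -1.39) and 17 had both arthritic joints below all controls, against 27.8% of all genes. The mean of the list was 5.94 and 5.92 at day 0 to 3, against 6.52, 6.49 and 9.34 in controls, so that control 3 stood far above the other controls. The cornified layer gene Lor was at 5.19 and 5.05, against 7.31, 5.63 and 11.02 in controls (adjusted p = 0.202). Skin was removed at dissection, and the amount left on control 3 was not measured. Among the largest decreases outside the lists were Myot and Xirp2, further genes of the muscle sarcomere (log2 -3.11 and -2.91), the phosphatase gene Ptpn3 (log2 -2.96, its other probe sets 0.35 to -3.41, 4 of them not called), and Pla2g2a, a secreted phospholipase, at 5.19 and 5.60 against 8.41, 7.90 and 8.57 in controls (7.46-fold lower, adjusted p = 0.00146).

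To find what set day 0 to 3 apart from later arthritis, its 2 joints were compared with the mean of the 3 later groups in the same fit. The letter code of the array names is partly mixed with time in this comparison. Both joints of day 0 to 3 and all joints of the earliest later group carry the same code. All declining joints carry another code, and week 3 to 4 holds both. Fewer genes were called with only groups of the same code, as given below. That fit also holds fewer arrays, so it cannot settle what part the code has in these calls. At an adjusted p under 0.05, 4 genes were higher and 11 lower, which is 0.0201% and 0.0552% of all genes, and 1343 genes had an unadjusted p under 0.05. All 15 were also called against control, in the same direction. The later groups share their controls with day 0 to 3 in that comparison, so values are given side by side.

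The 4 higher genes were Rdh10, Slc39a14, Il13ra2 and Lif. The zinc and iron transporter gene Slc39a14 averaged 7.93 ± 0.10 (SD, n = 2) at day 0 to 3, with a mean of 7.01 for week 1 to 2, then 6.32 for week 3 to 4 and 6.02 for the decline. Its controls were at 6.47, 6.23 and 6.51. The difference from the later groups was log2 1.48 (standard error 0.18, adjusted p = 0.00542). Il13ra2, a decoy receptor that binds IL-13, was at 6.11 and 6.35 at day 0 to 3, and averaged 5.13, 4.87 and 4.81 in the later groups in that order, with controls at 4.45, 4.70 and 4.82 (log2 1.29, standard error 0.19, adjusted p = 0.0256). Lif was at 7.07 and 6.84, against means of 6.07, 5.78 and 5.49 in the later groups (log2 1.17, adjusted p = 0.0321). Rdh10 averaged 7.54, 7.07 and 6.64 in the later groups (log2 1.77, adjusted p = 0.0404). For all 4 genes the mean was lower in each later group than in the one before it. Il13ra2 and Slc39a14 here, and Tnnt3 and Gstm1 below, were outside the 10 largest of the 15 differences and were chosen after their values were seen. Some genes came close to the threshold in this comparison. Has2 and Sfrp1 had log2 differences of 1.66 and 1.65 (adjusted p = 0.0511 and 0.0543), and Il4ra, which encodes the signalling chain shared by the IL-4 and IL-13 receptors and was chosen after its values were seen, 1.80 (adjusted p = 0.0569). Il4ra was at 10.07 and 9.75 at day 0 to 3, against 7.53, 7.25 and 6.98 in controls.

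**Figure D5:**
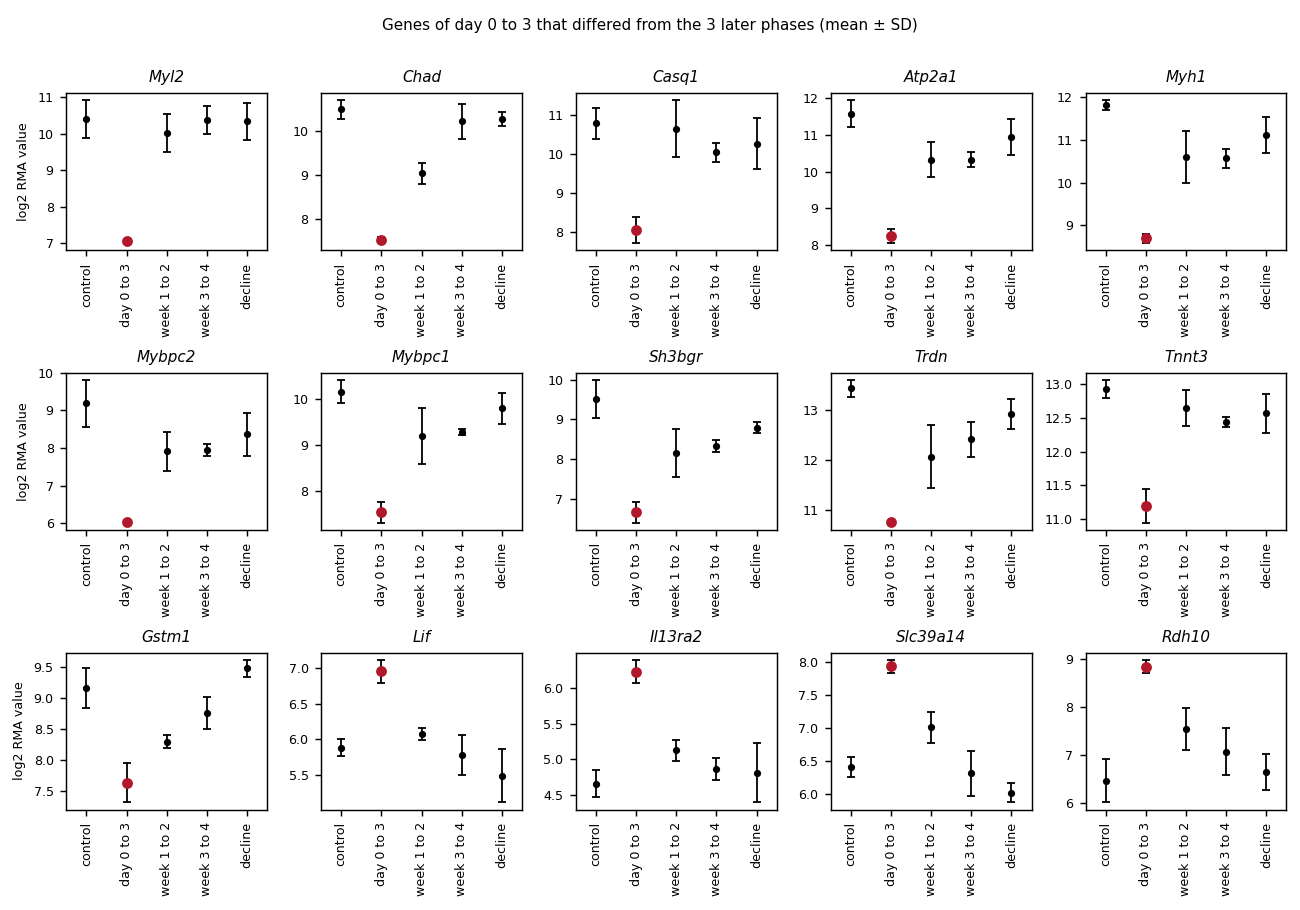
Mean log2 expression ± SD (y axis) of the 15 genes that differed between day 0 to 3 and the later groups, in control, day 0 to 3 (red) and the 3 later groups in order of time (x axis; n = 2 for day 0 to 3 and 3 for the others). Day 0 to 3 is the lowest group for the first 11 genes and the highest for the last 4.

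Of the 11 lower genes 9 are genes of muscle. Myl2, the regulatory light chain of slow and cardiac myosin, was at 7.03 and 7.09 at day 0 to 3, and averaged 10.02, 10.36 and 10.34 in the later groups (log2 -3.18, standard error 0.31, adjusted p = 0.000984). Its later groups lay near the controls at 10.26, 9.97 and 10.98. The others were Atp2a1, Casq1, Trdn and Sh3bgr, of which the first 3 act in calcium handling, and the filament genes Myh1, Mybpc1, Mybpc2 and Tnnt3, at log2 -2.29 to -1.34. The cartilage gene Chad was at 7.48 and 7.57 at day 0 to 3, while the later groups averaged 9.04, 10.22 and 10.27 in order of time (log2 -2.32, standard error 0.19, adjusted p = 0.0003). Gstm1, a glutathione transferase, was at 7.85 and 7.40 at day 0 to 3, and averaged 8.29, 8.75 and 9.48 in the later groups (log2 -1.22, adjusted p = 0.031). The bone genes Dlx5 and Alpl came close, at log2 -0.90 and -1.02 (adjusted p = 0.0511 and 0.0551). Alpl averaged 8.55, 8.89 and 9.26 in the later groups.

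Over the genes called against control, the median log2 difference from control was 1.23 at day 0 to 3 for the 890 higher genes, and 1.10, 0.81 and 0.45 in the later groups in order of time. For the 669 lower genes it was -0.92, -0.74, -0.56 and -0.39 in the same order. These genes were chosen at day 0 to 3 and all groups share the controls, so the sizes are a description.

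Adding animal 57 to day 0 to 3 left 11 genes higher and 152 lower. Of the 890 higher genes animal 57 lay above all controls in 122 and below all of them in 455, and of the 669 lower genes below all controls in 400. Its correlation with animals 16 and 18 across genes was 0.770 and 0.788, and with the controls 0.811 to 0.881, while animals 16 and 18 correlated at 0.988. Its macrophage, pattern recognition and protease lists had means of 6.71, 6.01 and 6.84, below every control. With animal 57 in the fit, the number of higher genes was 0 in the pattern recognition, protease, chemokine, interferon and secretory lists and 1 each in the macrophage and Fc receptor lists, and the number of lower genes was 2 each among cartilage genes and Wnt inhibitors.

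With 1 of the other arthritic joints removed as well as animal 57, the remaining joint was assumed to vary like the other groups, and 139 genes were called without animal 16 and 209 without animal 18. In the macrophage list 5 genes were called in either case, and in the protease list 2 without animal 16 and 5 without animal 18. Calls were lost in either case for the chemokine ligand, secretory, endothelial, IL-1, IL-6 and NF-kB lists, among others. The same held for the collagen, collagen folding, osteoblast, antigen presentation, insulin-like growth factor, ribosomal and cell cycle lists. It also held for the higher genes of the complement list. Without control 2, the counts of higher genes were 8 for macrophages, 5 for pattern recognition, 5 for Fc receptors, 11 for proteases, 6 for interferon and 8 for the secretory list, and without control 3 they were 9, 6, 5, 11, 5 and 9 in the same order. Of the smaller lists, the acute phase and neutrophil lists had 2 higher genes each without control 2, and the insulin-like growth factor and antigen presentation lists 1 each.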

How the data were processed

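Gene expression in tarsal joints of mice was measured on 15 Affymetrix Mouse Gene 1.0 ST arrays, 1 joint per array. The deposited values were log2 expression per probe set, which the authors made by RMA (background correction, then quantile normalisation) with R version 2.15 and affy. They were used as deposited, and whether the array of animal 57 was part of that normalisation is not settled. Of 35556 probe sets, those naming a single gene were kept, and the one with the highest mean was taken per gene (19938 genes). Array values carry no read depth, so the number of arrays limits the precision. One model with 5 group means was fitted to 14 arrays with limma 3.58.1 (R 4.3.3), its spread shared by all groups, and p-values were adjusted over all genes (Benjamini-Hochberg, threshold 0.05). Day 0 to 3 was compared with control and with the mean of the 3 later groups. The study's own test was an ANOVA, and the groups that entered it are not named. It counted genes by a fold change above 2 and P under 0.05. The alternative run here was an ANOVA of only the groups compared, with adjusted p-values, so its counts are not those of the study.

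In data simulated for 19938 genes the fit called 93 of 100 genes changed 4-fold and 47 of 100 changed 2-fold against control, with 4 false calls. For the later groups it called 98 and 62, with 7 false calls. Values were drawn independently from normal distributions, with the same spread for a gene in every array. The real arrays differ in signal range, so these counts hold for the simulated settings and give no false call rate for the real data.

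Named genes were the 15 largest called rises and falls with no overlap between groups, those called against the later groups (the 10 largest), the 4 largest differences of each list, and 63 genes of the study's tables. The members and lists were chosen with earlier results of these data known. Alternatives were other arrays left out or added, array weights, moderation, rescaling, a filter on low values and the mean of probe sets. Tables were handled with pandas 2.3.3 (Python 3.11.15), and plots with matplotlib 3.10.9.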

Additional observations from a re-analysis of the deposited data

Results flagged for a closer look

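The 15 genes that differed between day 0 to 3 and the later groups stand out by a direct test of that difference (limma, adjusted p under 0.05). The later groups entered as their mean and the joints came from different mice, so a course over time was not tested. Part of the later arrays also carry another letter code than day 0 to 3, so code and time are partly mixed. The log2 differences, day 0 to 3 minus the mean of the later groups, were -3.18 for Myl2, -2.32 for Chad, -2.29 for Casq1, -2.28 for Atp2a1, -2.06 for Myh1, -2.04 for Mybpc2, -1.87 for Mybpc1, -1.77 for Sh3bgr, -1.69 for Trdn, -1.34 for Tnnt3 and -1.22 for Gstm1. They were 1.17 for Lif, 1.29 for Il13ra2, 1.48 for Slc39a14 and 1.77 for Rdh10. Of these, Chad was called in 24 of 25 alternatives and Rdh10 in 13, and all 15 kept their direction in all 25. Leaving out a control or changing the moderation cannot alter this difference, so the direction was fixed in those alternatives.

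Some signal lay outside the genes compared. Of 12146 probe sets that name no gene, 105 were higher and 150 lower at day 0 to 3 than in control (limma, adjusted p under 0.05). Animal 57, which entered no comparison, lay above all controls in 122 of the 890 higher genes and below all controls in 400 of the 669 lower genes.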

How the results depend on the processing

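Against control 1559 genes were called. This count was 163 with all 15 arrays, 454 with only the groups compared, 0 with an ANOVA of these groups after Benjamini-Hochberg adjustment, and 2935 with array weights. Leaving out 1 array at a time gave 139 to 2613, with 139 without animal 16, 209 without animal 18, 2557 without control 1, 972 without control 2 and 2613 without decline replicate 3. The unadjusted limma p was under 0.05 for 5205 genes. All 155 called genes among the 234 named kept their direction in all 24 alternatives, while 124 of them lost the call with all 15 arrays and 155 in the ANOVA. The kept direction is not a test of these calls. Both joints lay on one side of all 3 controls, so leaving out an array could not reverse it. A change of moderation or of the groups fitted leaves the difference as it was.

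Against the later groups 15 genes were called. The count was 37 with only the groups compared, 0 with the ANOVA, 24 with trend and robust moderation, 922 with array weights, 9 with 1 median and SD for every array, 53 after a second quantile normalisation, 58 with a filter on low values, 30 with the mean of probe sets, 1 with groups of the same letter code, and 261 by a 2-fold change and an unadjusted p. Leaving out 1 array gave 1 to 72, with 1 without animal 16 and likewise without animal 18. The causes were not tested, except that fewer arrays enter when groups or arrays are left out. The split of calls against control, 890 higher and 669 lower, was 750 and 692 after a second quantile normalisation and 958 and 532 with arrays centred on their medians. No paired analysis was possible because the joints came from different mice and their numbers are animal numbers that the groups do not share.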

Other observations

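Other lists held smaller changes. Of 15 genes of the NADPH oxidase and oxidative defence 2 were higher at day 0 to 3, Prdx1, a peroxidase, and Nfe2l2, which encodes the transcription factor NRF2 (log2 1.75 and 1.59, limma). Of 15 prostanoid and leukotriene genes 2 were higher, the cyclooxygenase gene Ptgs2 and the prostaglandin E2 receptor gene Ptger4 (log2 1.29 and 0.87), and 2 were lower, the leukotriene C4 synthase gene Ltc4s and the leukotriene B4 receptor gene Ltb4r1 (log2 -0.95 and -0.82). Of 12 S100 genes 3 were higher, S100a10, S100a4 and S100a11 (log2 2.21, 2.03 and 0.80), and 1 was higher without control 2. Of 23 cell cycle genes 3 were higher, Pcna, Cdk1 and Bub1 (log2 1.52, 0.79 and 0.77), and 0 with animal 57 in the fit. The probe set used for Top2a was at log2 1.03 (not called) and its other one at -0.77 (called lower). Of 11 small leucine-rich proteoglycan genes 3 were higher, Lum, Ogn and Bgn (log2 1.68, 1.19 and 1.03), and 1 was lower, Chad (log2 -2.97), with 1 higher without control 2. Of 8 mast cell genes 0 were higher and 1 lower, Ms4a2, a chain of the IgE receptor (log2 -0.71, median of the list 0.03). Of 7 myelin genes 0 were higher and 1 lower, Mbp (log2 -0.94, median of the list -0.30). Of 8 tendon genes 1 was higher, Thbs4 (log2 0.90), and 1 lower, Chodl (log2 -1.09), while 7 had a positive difference (median 0.57). Over all genes 4.46% were called higher and 3.36% lower.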
